A study of Mus musculus with 4 samples.

Results

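The genes described here make, store and break down fatty acids, triglycerides and phospholipid acyl chains. They were taken from the deposited gene table as the rows whose gene symbol is one of 38 names, and all 38 were found once each among 56691 genes. The cells were primary wild-type cardiac fibroblasts from mouse hearts at postnatal days 1 to 3, in which Mef2c, Gata4 and Tbx5 (MGT), the factors that turn fibroblasts into induced cardiomyocytes, were introduced in every library, and RNA was taken at day 7. The MGT+shNT libraries (n = 2) also carried a non-targeting short hairpin RNA, and the MGT+shScd1 libraries (n = 2) a hairpin against Scd1, the gene of stearoyl-CoA desaturase, which makes monounsaturated from saturated acyl chains; below these are the control and the knockdown libraries. Cells without the reprogramming factors were not analysed here. Nothing in the labels says whether replicates were separate cultures or animals, and p-values rest on a spread between samples that may be technical.

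As background, fatty acid synthesis starts in the cytosol, where citrate is split to acetyl-CoA, acetyl-CoA is carboxylated to malonyl-CoA, and fatty acid synthase joins these units into palmitate. Acyl-CoA is then added stepwise to glycerol-3-phosphate to give lysophosphatidate and phosphatidate, a phosphatase makes diacylglycerol, and a last acyl transfer gives triglyceride, which is stored in lipid droplets and released again by lipases. Membrane phospholipids share the early steps, and their acyl chains are exchanged by lysophospholipid acyltransferases. Monounsaturated acyl-CoA, the product of the desaturase that was knocked down, is a favoured substrate of several of these acyltransferases. The heart oxidises fatty acids as its main fuel and keeps small droplets as a buffer.

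Total counts were between 15135227 and 20894972 per library. The targeted gene Scd1 had 84.4 and 63.5 CPM (counts per unit of library size, with the size adjusted by edgeR's TMM factor) in control and 6.64 and 8.04 CPM after knockdown, and it fell by 3.34 on the log2 scale (SE 0.14, adjusted p = 4.31e-09). Adjusted p-values here, other than those of a named alternative, come from edgeR's quasi-likelihood test over 16234 tested genes with Benjamini-Hochberg adjustment, a gene is called at an adjusted p below 0.05, and fold changes are log2 of MGT+shScd1 over MGT+shNT with their standard error (SE). Rn18s-rs5, a ribosomal RNA gene, took 3.32% of the counts of MGT+shNT replicate 2 and 0.129% to 0.199% in the other libraries. Among fibroblast markers, 7 of 10 fell and 1 rose, while of 10 cardiomyocyte markers 5 rose and 3 fell. Of 18 macrophage markers 13 fell and 1 rose, with a median log2 change of -1.36. Their summed level was 928 and 814 CPM in control and 254 and 256 CPM after knockdown, and none of the 18 was at 0 in any library. Of 6 tested endothelial markers 1 fell and 0 rose (5 of the 6 were not called, and none was higher at an unadjusted p below 0.05), and of 8 epicardial and mesothelial markers 4 fell and 1 rose. Of all tested genes, 16.3% were called lower and 13.1% higher. In bulk RNA, fewer cells of a type and less RNA per cell cannot be told apart. The part of these markers in the results below was not tested. Adipocyte markers were nearly absent, with a sum over 10 genes between 0.608 and 1.04 CPM and with Adipoq and Cfd at 0 counts in all 4 libraries.

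Of the 38 lipid genes, 37 passed the filter on low counts, and of these 11 fell, 3 rose and 23 did not pass the test. Over all tested genes 16.3% were called lower and 13.1% higher. The lipid genes held a larger share of falls (29.7%) and a smaller share of rises (8.11%) than the table as a whole. These differences in share were not tested. The 38 genes and the lists used here were chosen with earlier results of these data known. The median log2 change of the 37 genes was -0.11, beside 0.00 over all genes tested. The falls were those of G0s2, Mgll, Lpin2, Mlxip, Acly, Acsl3, Acsl5, Abhd5, Gpam, Plin2 and the scarce Plin4, and the rises those of Dgat1, Mboat2 and Lpcat1. For 18 of the 37 both knockdown libraries lay below both control libraries and for 12 both lay above, against 32.3% and 32.0% of all tested genes.

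The fit was repeated under 11 alternatives, which are those that follow, RLE normalisation and no filter on low counts. The counts of called lipid genes moved with the library left out and with the test, and so did the share over all genes. Without MGT+shNT replicate 1, 10 fell and 6 rose, beside 15.9% and 13.4% of all genes. Without MGT+shNT replicate 2, 13 fell and 3 rose, beside 18.1% and 15.1%. Leaving out MGT+shScd1 replicate 1 gave 6 falls and 0 rises by edgeR, with 2 higher at an unadjusted p below 0.05, beside 8.47% and 5.53% of all genes. Leaving out MGT+shScd1 replicate 2 gave 7 falls and 1 rise, beside 9.55% and 6.21%. The DESeq2 Wald test gave 7 falls and 0 rises, with 4 higher at an unadjusted p below 0.05, beside 11.7% and 8.35%, while limma-voom gave 11 and 3, beside 16.2% and 13.1%. Adding a replicate block to edgeR gave 11 falls and 4 rises, beside 16.9% and 13.9%. On log2(FPKM + 1) 6 fell and 2 rose, beside 7.69% and 13.9%, and on log2(FPKM + 0.1) 6 and 2, beside 7.8% and 13.9%. The direction of all calls shifted on these scales, since 64.4% of 3505 calls were higher on log2(FPKM + 1) and 64.1% of 3526 on log2(FPKM + 0.1) against 44.6% of the 4763 calls on counts.

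**Figure D1:**
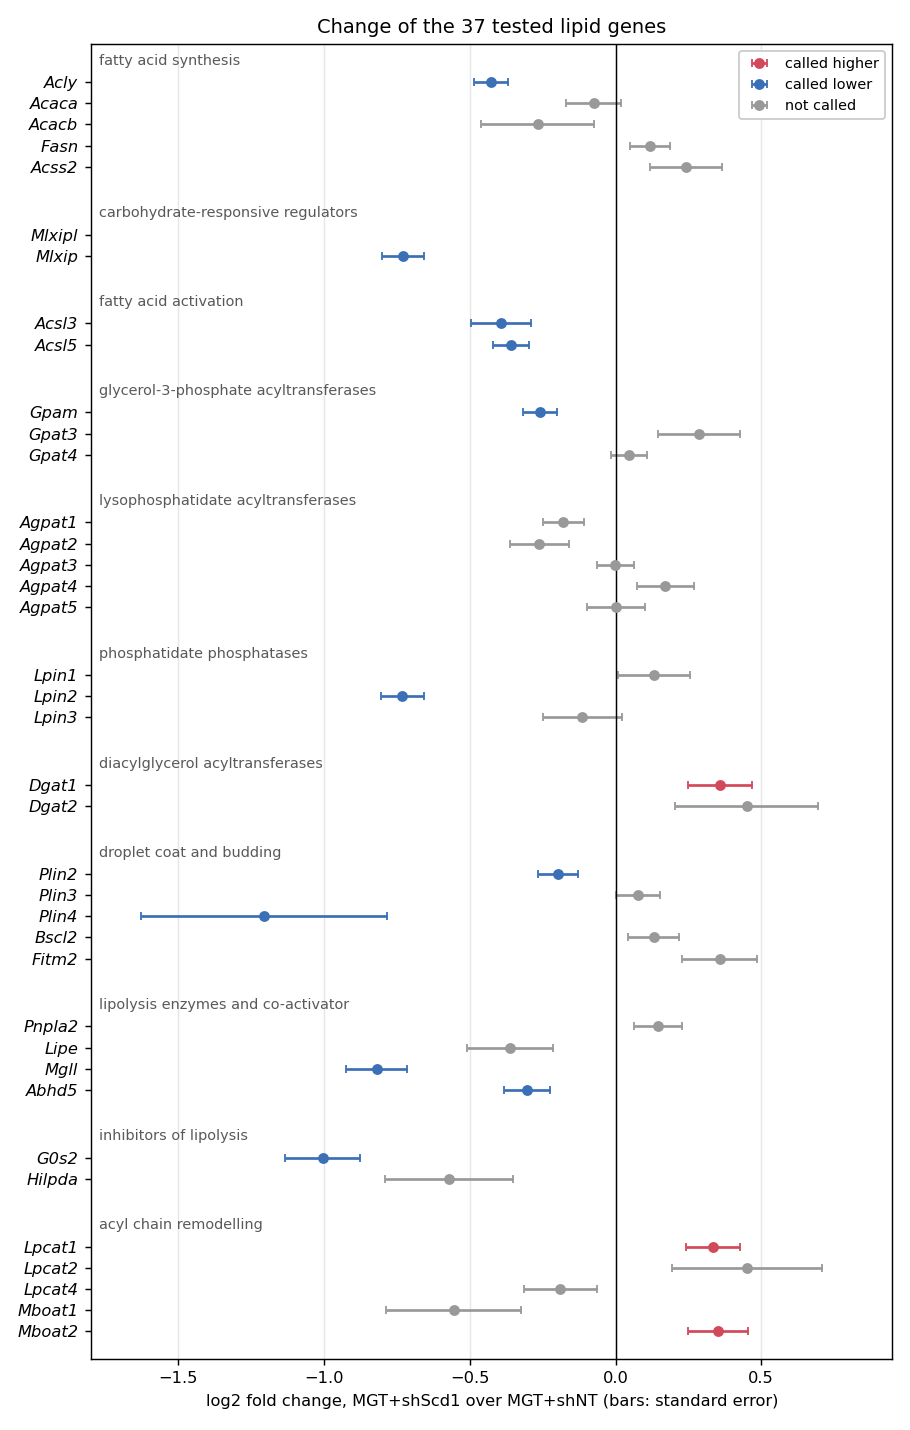
Log2 fold change of each tested lipid gene (x axis, MGT+shScd1 over MGT+shNT, all 4 libraries) by role (y axis), with bars of 1 standard error and colours for called genes. The 11 called falls run from -1.21 (Plin4) to -0.20 (Plin2) and the 3 called rises from 0.33 to 0.36, and Mlxipl has no point because it did not pass the filter.

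The region around the start site is shown for the 4 well-counted genes with the largest falls and for 1 gene that rose, so that their sequences can be set side by side. Sequences are from RefSeq on GRCm38.p6, run from 250 bases before to 50 bases after the annotated start, and are written 5′ to 3′ on the gene's strand. Capitals mark the E-box CACGTG, the core to which the Mlxip protein and its partner Mlx bind, the CCAAT box (CCAAT) and the GC box (GGGCGG), each on either strand.
G0s2, chr1:193273139-193273438, minus strand: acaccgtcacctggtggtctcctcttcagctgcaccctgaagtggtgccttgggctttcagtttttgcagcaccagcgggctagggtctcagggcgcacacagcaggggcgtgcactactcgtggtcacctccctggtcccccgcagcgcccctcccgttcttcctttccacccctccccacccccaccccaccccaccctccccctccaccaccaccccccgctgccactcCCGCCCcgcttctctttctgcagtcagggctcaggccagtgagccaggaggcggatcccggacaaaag
Mgll, chr6:88724162-88724461, plus strand: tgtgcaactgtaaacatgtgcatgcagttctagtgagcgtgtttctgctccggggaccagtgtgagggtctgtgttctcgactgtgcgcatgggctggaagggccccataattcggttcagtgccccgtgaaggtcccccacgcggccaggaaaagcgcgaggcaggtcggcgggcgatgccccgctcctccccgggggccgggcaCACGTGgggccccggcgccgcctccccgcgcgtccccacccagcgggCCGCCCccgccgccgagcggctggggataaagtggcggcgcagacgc
Lpin2, chr17:71183282-71183581, plus strand: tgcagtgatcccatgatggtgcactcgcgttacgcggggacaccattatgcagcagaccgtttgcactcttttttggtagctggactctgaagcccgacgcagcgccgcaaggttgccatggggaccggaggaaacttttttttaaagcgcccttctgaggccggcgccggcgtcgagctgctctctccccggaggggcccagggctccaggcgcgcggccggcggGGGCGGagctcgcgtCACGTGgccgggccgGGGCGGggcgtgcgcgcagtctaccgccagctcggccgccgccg
Mlxip, chr5:123394548-123394847, plus strand: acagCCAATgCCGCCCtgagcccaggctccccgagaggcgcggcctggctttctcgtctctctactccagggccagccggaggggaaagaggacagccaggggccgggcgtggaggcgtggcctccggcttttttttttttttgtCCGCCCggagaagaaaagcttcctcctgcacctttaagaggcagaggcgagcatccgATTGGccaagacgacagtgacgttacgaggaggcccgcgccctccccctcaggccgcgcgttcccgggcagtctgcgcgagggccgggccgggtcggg
Lpcat1, chr13:73466981-73467280, plus strand: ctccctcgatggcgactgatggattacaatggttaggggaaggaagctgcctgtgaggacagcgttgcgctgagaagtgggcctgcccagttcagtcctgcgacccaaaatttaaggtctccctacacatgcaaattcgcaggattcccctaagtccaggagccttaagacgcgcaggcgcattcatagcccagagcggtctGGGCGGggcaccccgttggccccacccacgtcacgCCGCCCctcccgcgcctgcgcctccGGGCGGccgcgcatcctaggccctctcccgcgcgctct
The Mgll window holds an E-box 44 bases before the start and the Lpin2 window one 9 bases before it, while the other 3 windows hold none. RefSeq lists another start for Mgll and 2 more for Lpin2, whose windows have no E-box. Windows were found for 34 of the 38 genes, 45 in all. An E-box stood in a window of 3 of the 11 genes that fell (Mgll, Lpin2 and Plin2), 2 of 20 that did not pass and 0 of 2 that rose, and in one of Mlxipl, which was not tested. It was found in 13.3% of the 45 windows beside 7.15% of 32851 windows in the RefSeq table. The CCAAT box was in 42.2% against 37.4%, the GC box in 66.7% against 35.7%, the sterol element TCACNCCAC in 2.22% against 1.24% and the TATA box (TATAAA) in 4.44% against 13.6%. Of the matches of these 5 motifs in the 45 windows, 5 overlapped another match. Such matches describe letters and not binding.

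Of 5 fatty acid synthesis genes, 1 fell and 0 rose by edgeR, beside 16.3% and 13.1% of all tested genes. The fall was that of Acly, ATP citrate lyase, which makes cytosolic acetyl-CoA from citrate. Acly (ENSMUSG00000020917, minus strand of chromosome 11, 100476353 to 100528000 on the GRCm38 build) had 142 and 148 CPM in control and 107 and 108 CPM after knockdown. The groups did not overlap, and both knockdown libraries were close to each other. Its mean of 145 ± 3.94 CPM (SD, n = 2) in control compares with 108 ± 0.945 CPM (SD, n = 2) after knockdown, a log2 change of -0.43 (SE 0.06, adjusted p = 0.000121). The genes of the next steps did not pass. Fasn, fatty acid synthase, had 142 and 125 CPM in control and 143 and 149 CPM after knockdown, so that the control libraries differed more from each other than the nearest pair across groups (log2 change 0.12, adjusted p = 0.221). Acaca, the cytosolic acetyl-CoA carboxylase, had a log2 change of -0.08 (adjusted p = 0.605) and overlapping groups. Acacb, the carboxylase at the mitochondrial surface whose product limits fatty acid entry, had -0.27 (adjusted p = 0.342). For Acss2, which makes acetyl-CoA from acetate, the value was 0.24 (adjusted p = 0.166). Per length, on the deposited FPKM, which divide a gene's count by its exonic length and the library total, Acly (26.5 ± 0.106 in control) and Fasn (11.8 ± 1.44) stood well above Acaca (1.95 ± 0.29), Acss2 (1.31 ± 0.0919) and Acacb (0.585 ± 0.106). Without MGT+shNT replicate 1, Fasn was called higher (adjusted p = 0.0123).

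The glucose-sensing transcription factors of the Mondo family drive lipogenic and glycolytic genes together with their partner Mlx. Mlxip, also called MondoA (ENSMUSG00000038342, plus strand of chromosome 5, 123394798 to 123457932), had 64.5 and 66.8 CPM in control and 38.7 and 40.4 CPM after knockdown. The 4 values formed 2 tight pairs, and Mlxip fell by 0.73 on the log2 scale (SE 0.07, adjusted p = 7.17e-06). Mlxipl, also called ChREBP and the main form in liver and fat, had 2 and 0 counts in control and 9 and 9 counts after knockdown, too few to pass the filter. The ratio of its summed counts, scaled to library size, was 8.06 (exact 95% counting interval 1.93 to 71.6, which covers counting error only), and with no filter on low counts it did not pass (adjusted p = 0.0747). On FPKM, Mlxipl at 0.09 in each knockdown library was far below Mlxip at 4.80 and 5.01.

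Of the long-chain acyl-CoA synthetases, which activate fatty acids, the 38 genes hold Acsl5 and Acsl3. Both fell, beside 16.3% of all tested genes. Acsl5, an acyl-CoA synthetase of mitochondria and endoplasmic reticulum (ENSMUSG00000024981, plus strand of chromosome 19, 55251938 to 55297720), had 99.3 and 99.1 CPM in control and 78.2 and 76.4 CPM after knockdown, a log2 change of -0.36 (SE 0.06, adjusted p = 0.000686). Acsl3, the synthetase that moves to growing lipid droplets (ENSMUSG00000032883, plus strand of chromosome 1, 78657825 to 78707743), had 22.9 and 24.6 CPM against 18.7 and 17.4 CPM, a log2 change of -0.39 (SE 0.10, adjusted p = 0.0122). Neither gene's groups overlapped, and the fall was of like size in both. Of their paralogues, named here after their values were seen, Acsl1 fell by 0.25 (adjusted p = 0.0272), a call lost under 6 of 11 alternatives, among them MGT+shNT replicate 2 or either knockdown library left out (adjusted p between 0.0838 and 0.326). Acsl4, which favours polyunsaturated fatty acids, lay higher in value with no overlap, at 59.0 and 55.2 CPM in control and 63.8 and 66.8 CPM after knockdown, and did not pass (0.19, adjusted p = 0.0578). Acsl6 was too scarce to be tested. In the summed FPKM of the 5 Acsl genes, Acsl5 had 49.5% ± 0.0707 in control and 44.0% ± 0.778 after knockdown, Acsl3 13.2% ± 0.636 and 11.5% ± 0.566, and Acsl4 25.6% ± 1.2 and 33.5% ± 1.06. The Acsl3 call was lost under 5 of 11 alternatives, namely the DESeq2 Wald test, both FPKM scales and either knockdown library left out (adjusted p between 0.0588 and 0.133). Exons of Acsl5 share 8.31% of their length with Zdhhc6 on the other strand, and those of Acsl3 share 5.6% with Utp14b on the same strand, so reads there are uncertain.

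Glycerolipid assembly opens with the acylation of glycerol-3-phosphate. Gpam, the mitochondrial acyltransferase GPAT1 (ENSMUSG00000024978, minus strand of chromosome 19, 55067268 to 55127238), had the highest FPKM of all 38 genes in control, 28.0 ± 1.58. Its CPM were 197 and 190 in control and 158 and 165 after knockdown, with no overlap, and it fell by 0.26 on the log2 scale (SE 0.06, adjusted p = 0.00438). The endoplasmic reticulum forms did not pass, with log2 changes of 0.29 for Gpat3 (adjusted p = 0.151) and 0.05 for Gpat4 (adjusted p = 0.624). With the scarce Gpat2 included, Gpam made up 61.3% of the summed FPKM of the 4 genes in each control library and 54.1% and 56.3% after knockdown. Gpat4 had 31.0% and 31.2% in control and 34.9% and 34.2% after knockdown. The summed FPKM itself was 47.5 and 43.9 in control and 45.2 and 45.4 after knockdown, so the groups overlapped on this scale. FPKM carry no TMM scaling. The summed CPM of Gpam, Gpat3 and Gpat4 was 306 and 297 in control and 274 and 277 after knockdown, with no overlap. The Gpam call was lost without MGT+shScd1 replicate 1 as well as on either FPKM scale (adjusted p between 0.0981 and 0.132). Gpat3 shares 30.0% of its exonic length with the antisense gene 4930458D05Rik, and its count is uncertain for that reason.

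None of the 5 lysophosphatidate acyltransferases, which make phosphatidate, was called by edgeR, beside 16.3% lower and 13.1% higher of all tested genes. At an unadjusted edgeR p below 0.05, 2 were lower and 0 higher, beside 3438 lower and 2971 higher of the 16234 tested genes. Agpat2, the form lost in human congenital lipodystrophy, had 22.5 and 23.3 CPM in control and 19.3 and 18.8 CPM after knockdown (log2 change -0.26, adjusted p = 0.0685). Agpat1 had 86.2 and 78.0 CPM against 74.8 and 70.5 CPM (-0.18, adjusted p = 0.0764), and without MGT+shNT replicate 2 it was called lower (adjusted p = 0.00785). For both genes the groups did not overlap, and for Agpat1 the control libraries differed from each other by more than the gap between the groups. Agpat3 (-0.00, adjusted p = 0.991), Agpat4 (0.17, adjusted p = 0.22) and Agpat5 (0.00, adjusted p = 0.993) did not pass either. DESeq2 and limma-voom likewise called none of the 5. Agpat1 had the highest FPKM of the family, 45.0% ± 1.7 of the sum in control and 42.6% ± 0.849 after knockdown.

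Lipins dephosphorylate phosphatidate to diacylglycerol and also act in the nucleus as co-regulators. Lpin2 (ENSMUSG00000024052, plus strand of chromosome 17, 71182560 to 71249817), whose loss in humans causes the inflammatory Majeed syndrome, had 66.8 and 62.6 CPM in control and 38.3 and 39.7 CPM after knockdown. The knockdown libraries were thus well below both controls, and Lpin2 fell by 0.73 on the log2 scale (SE 0.07, adjusted p = 8.34e-06). Lpin1, the main lipin of muscle and fat, did not pass (0.13, adjusted p = 0.465), with 26.5 and 19.9 CPM in control and 25.2 and 26.3 CPM after knockdown. It was called higher without MGT+shNT replicate 1 (adjusted p = 0.0172), the library that lay above MGT+shNT replicate 2 at this gene. Lpin3 did not pass either (-0.11, adjusted p = 0.578). On the FPKM scale Lpin2 went from 49.0% ± 1.2 to 36.6% ± 1.41 of the lipin sum and Lpin1 from 21.6% ± 2.83 to 29.8% ± 1.27. The sum was 11.2 and 9.68 FPKM in control and 9.08 and 8.88 FPKM after knockdown.

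Diacylglycerol acyltransferases close triglyceride synthesis, and 1 of the 2 rose, beside 13.1% of all tested genes. Dgat1 (ENSMUSG00000022555, minus strand of chromosome 15, 76502015 to 76511953), the enzyme that re-esterifies fatty acids from outside the cell and from lipolysis, had 17.8 and 21.1 CPM in control and 24.4 and 25.1 CPM after knockdown. It rose by 0.36 on the log2 scale (SE 0.11, adjusted p = 0.0251). The groups did not overlap, though the controls were the more spread pair. Dgat2, the form coupled to newly made fatty acids, had 2.81 and 2.73 CPM against 3.9 and 3.68 CPM and did not pass (0.45, SE 0.25, adjusted p = 0.197). Dgat1 was 87.5% ± 1.48 and 86.8% ± 0.707 of the FPKM of the pair in control and knockdown. The Dgat1 call was lost under 4 of 11 alternatives, namely the DESeq2 Wald test and leaving out MGT+shNT replicate 1 or one of the knockdown libraries (adjusted p between 0.101 and 0.173).

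**Figure D2:**
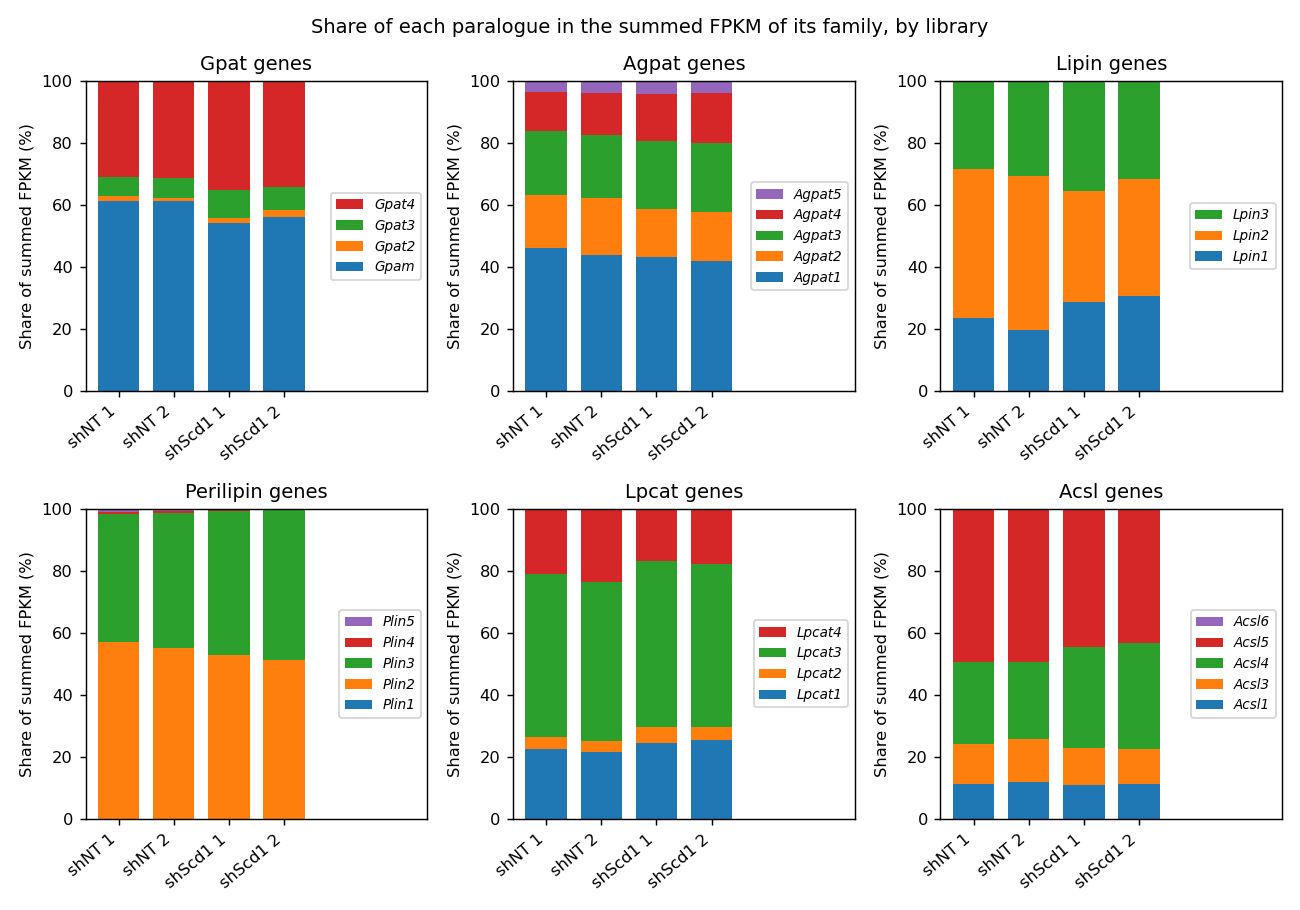
Share of each paralogue (y axis, percent) in the summed FPKM of its family in each of the 4 libraries (x axis), for 6 families of paralogues. Lpin2 takes 48.2% and 49.9% of the lipin sum in the MGT+shNT libraries but 35.6% and 37.6% in the MGT+shScd1 libraries, while the share of Acsl4 is 26.5% and 24.8% against 32.7% and 34.2%.

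Of 5 droplet coat and budding genes, 2 fell and 0 rose by edgeR, beside 16.3% and 13.1% of all tested genes. At an unadjusted p below 0.05 in the same test, 1 was higher. Plin2, the coat protein of droplets in most cell types (ENSMUSG00000028494, minus strand of chromosome 4, 86648386 to 86670060), had 71.8 and 74.7 CPM in control and 65.4 and 62.2 CPM after knockdown. It fell by 0.20 on the log2 scale (SE 0.07, adjusted p = 0.0414), the smallest change among the called lipid genes. Plin4, a perilipin with long amphipathic repeats (ENSMUSG00000002831, minus strand of chromosome 17, 56100591 to 56109803), had 34 and 24 counts in control and 18 and 10 counts after knockdown and fell by 1.21 (SE 0.42, adjusted p = 0.0471). Both calls sat just inside the threshold. Plin2 lost its call under 7 of 11 alternatives (adjusted p between 0.0701 and 0.271) and Plin4 under 6 (adjusted p between 0.0531 and 0.33). Both lost it with the DESeq2 Wald test, on the FPKM scales and with one of the knockdown libraries left out, Plin2 also without MGT+shNT replicate 2 and with no filter, and Plin4 also without MGT+shNT replicate 1. Plin3, which coats nascent droplets, did not pass (0.08, adjusted p = 0.484). On FPKM, Plin2 (20.1 ± 0.0636 in control) and Plin3 (15.2 ± 0.778) were far above Plin4, which was 0.71% ± 0.0325 of the sum over the 5 perilipin genes.

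The genes of droplet budding did not pass. Bscl2 encodes seipin, which sits where droplets leave the endoplasmic reticulum, and had a log2 change of 0.13 (adjusted p = 0.298). Fitm2, which is needed for droplets to bud, had 16.8 and 13.1 CPM in control and 19.9 and 18.8 CPM after knockdown (0.36, adjusted p = 0.053). The groups of Fitm2 did not overlap, and it was called higher with no filter on low counts, under the replicate block and without MGT+shNT replicate 1 (adjusted p from 0.000945 to 0.0284).

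Of the 4 genes for lipolysis enzymes and their co-activator among the 38, Mgll and Abhd5 fell and 0 rose. That stood beside 16.3% lower and 13.1% higher of all tested genes. Mgll encodes monoacylglycerol lipase, which completes triglyceride breakdown and also degrades the endocannabinoid 2-arachidonoylglycerol (ENSMUSG00000033174, plus strand of chromosome 6, 88724412 to 88828360). Mgll had 34.4 and 34.9 CPM in control and 17.9 and 21.4 CPM after knockdown, a log2 change of -0.82 (SE 0.10, adjusted p = 5.84e-05). The controls agreed closely and the knockdown libraries were both far below them. Abhd5, the co-activator of adipose triglyceride lipase also called CGI-58 (ENSMUSG00000032540, plus strand of chromosome 9, 122351608 to 122381524), had 40.5 and 39.7 CPM against 32.3 and 32.7 CPM and fell by 0.30 (SE 0.08, adjusted p = 0.012). The lipase that it activates, Pnpla2, the rate-limiting enzyme of lipolysis, did not pass, with 44.8 and 39.3 CPM against 47.1 and 46.4 CPM (0.15, adjusted p = 0.212). Lipe, hormone-sensitive lipase, had 15.6 and 12.1 CPM against 10.1 and 11.6 CPM and did not pass (-0.36, adjusted p = 0.0832). Leaving out MGT+shNT replicate 1 brought Pnpla2 past the threshold as a rise (adjusted p = 0.0388), and leaving out MGT+shNT replicate 2 brought Lipe past it as a fall (adjusted p = 0.00264). The Abhd5 call was lost under the same 5 of 11 alternatives as that of Acsl3 (adjusted p between 0.0669 and 0.157), including either knockdown library left out. Abhd5 shares 16.0% of its exonic length with the antisense gene A730085K08Rik, which had at most 4 counts in a library.

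The small protein inhibitors of Pnpla2 were both lower in value. G0s2 (ENSMUSG00000009633, minus strand of chromosome 1, 193272161 to 193273217), which binds and blocks the lipase, had 16.5 and 15.6 CPM in control and 8.1 and 7.94 CPM after knockdown. Each pair of replicates was tight, and G0s2 fell by 1.00 on the log2 scale (SE 0.13, adjusted p = 6.68e-05), from 16.1 ± 0.657 to 8.02 ± 0.116 CPM. Hilpda, a hypoxia-inducible inhibitor of the same lipase, had 5.96 and 4.62 CPM in control and 3.44 and 3.74 CPM after knockdown and did not pass (-0.57, SE 0.22, adjusted p = 0.068). It was called lower without MGT+shNT replicate 2 (adjusted p = 0.0112). On FPKM, the inhibitor G0s2 stood above the lipase in control, 17.8 ± 1.29 against 13.5 ± 1.65, and below it after knockdown, 9.51 ± 0.156 against 16.0 ± 0.177. The change of this ratio was not tested.

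**Figure D3:**
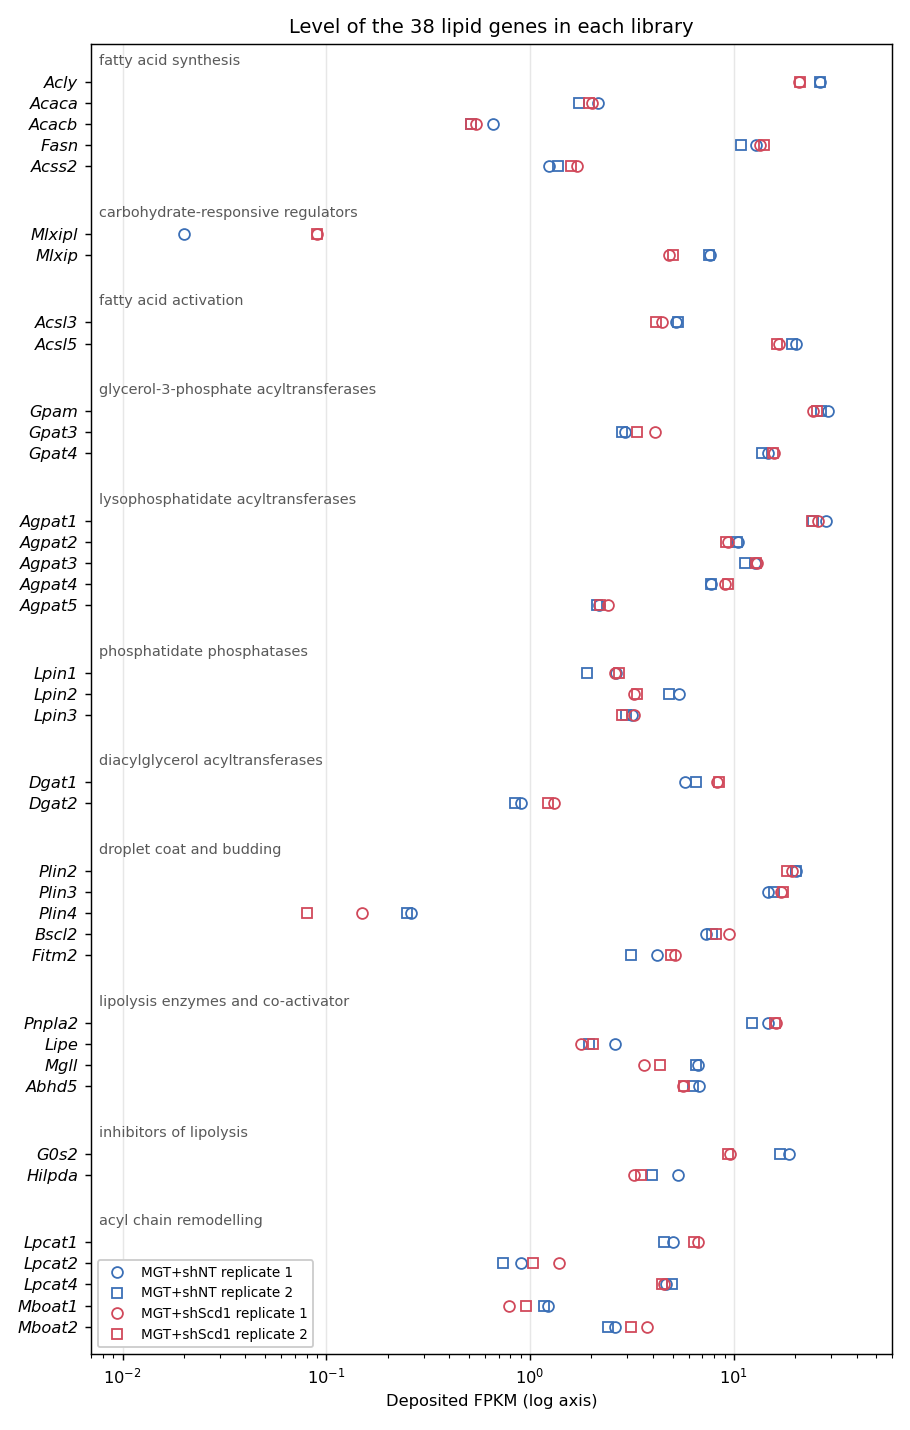
Deposited FPKM (x axis, log axis) of the 38 lipid genes by role (y axis), with 1 symbol per library, circles for replicate 1 and squares for replicate 2. Gpam, Acly and Agpat1 have the highest levels, the MGT+shNT and MGT+shScd1 symbols of G0s2, Mgll, Lpin2 and Mlxip stand apart, and the MGT+shNT library with Mlxipl at 0 is not drawn.

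In acyl chain remodelling, 2 of 5 genes rose, 0 fell and 3 did not pass, beside 13.1% higher and 16.3% lower of all tested genes. At an unadjusted edgeR p below 0.05, 1 was lower. Lpcat1, which places saturated chains on lysophosphatidylcholine and is known for lung surfactant (ENSMUSG00000021608, plus strand of chromosome 13, 73467197 to 73516422), had 23.7 and 22.4 CPM in control and 29.7 and 28.5 CPM after knockdown. It rose by 0.33 on the log2 scale (SE 0.09, adjusted p = 0.0166). Mboat2, which prefers monounsaturated oleoyl-CoA as acyl donor (ENSMUSG00000020646, plus strand of chromosome 12, 24830879 to 24964397), had 25.3 and 24.5 CPM against 34.6 and 28.9 CPM and rose by 0.35 (SE 0.10, adjusted p = 0.0218). Neither gene's groups overlapped, and the knockdown libraries of Mboat2 were spread more widely than its controls. Its paralogue Mboat1, which likewise prefers oleoyl-CoA, had 4.51 and 4.55 CPM in control and 2.79 and 3.37 CPM after knockdown and did not pass (-0.56, SE 0.23, adjusted p = 0.0917). The share of Mboat2 in the FPKM of the pair was 68.1% and 67.4% in control and 82.6% and 76.7% after knockdown. Lpcat2, an inducible form of inflammatory cells, had 0.45 (adjusted p = 0.218) and Lpcat4 -0.19 (adjusted p = 0.292). Lpcat3, which places polyunsaturated chains and is not one of the 38 genes, had the highest FPKM of the 4 Lpcat genes, 52.0% ± 0.919 of their sum in control and 53.0% ± 0.636 after knockdown, and did not pass (0.19, adjusted p = 0.103). The share of Lpcat1 was 22.1% ± 0.636 in control and 24.9% ± 0.636 after knockdown, and that of Lpcat4 22.2% ± 1.98 and 17.4% ± 0.707. The Lpcat1 call was lost with the DESeq2 Wald test and with either knockdown library left out (adjusted p between 0.0811 and 0.156). That of Mboat2 was lost with the DESeq2 Wald test, on the FPKM scales and without MGT+shScd1 replicate 1 (adjusted p between 0.0714 and 0.303).

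Of the 14 called genes, G0s2, Mgll, Lpin2, Mlxip, Acly and Acsl5 were called under all 11 alternatives, and all 6 of them fell. No called gene changed sign under any of the 11. Over the fits that leave out 1 library, the log2 change ran from -1.04 to -0.95 for G0s2, from -0.95 to -0.70 for Mgll, from -0.78 to -0.68 for Lpin2, from -0.76 to -0.70 for Mlxip, from -0.45 to -0.40 for Acly and from -0.38 to -0.34 for Acsl5. Relative to their size, the ranges of Mboat2, Dgat1 and Plin4 were wider. That of Mboat2 ran from 0.21 to 0.48, where 0.21 is the value without MGT+shScd1 replicate 1. For Dgat1 the range was 0.24 (without MGT+shNT replicate 1) to 0.47, and for Plin4 -1.67 to -0.86 (without MGT+shScd1 replicate 2). For Acsl3 it was -0.44 to -0.34, for Gpam -0.29 to -0.23, for Plin2 -0.23 to -0.16, for Abhd5 -0.32 to -0.28 and for Lpcat1 0.30 to 0.39.

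**Figure D4:**
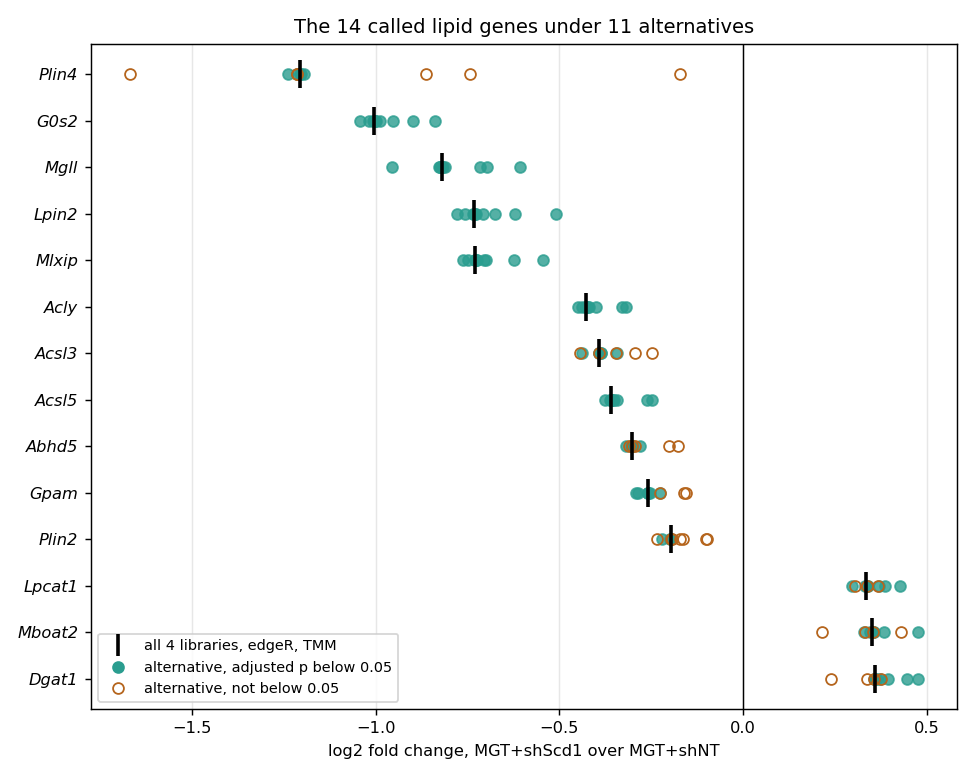
Log2 fold change (x axis) of the 14 called lipid genes (y axis) in all 4 libraries (black bar) and under 11 alternatives, filled where the adjusted p stayed below 0.05 and open where it did not. The 6 genes G0s2, Mgll, Lpin2, Mlxip, Acly and Acsl5 have filled symbols throughout.

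Further genes of the same pathways, 90 with a row in the table, were set beside them. Of 76 tested, 18 fell, 6 rose and 52 did not pass, and the median log2 change was -0.06. The share of falls was 23.7% and of rises 7.89%, against 16.3% and 13.1% of all genes. Among the regulators of lipogenesis, Srebf1, which encodes SREBP-1, had 77.7 and 71.6 CPM in control and 66.0 and 63.3 CPM after knockdown and fell by 0.21 (SE 0.07, adjusted p = 0.0376). That call was lost under 6 of 11 alternatives (adjusted p from 0.136 to 0.399). Srebf2 (-0.00, adjusted p = 0.963), Nr1h3, the liver X receptor alpha (0.02, adjusted p = 0.919), and Pparg (-0.19, adjusted p = 0.737) did not pass. The adipogenic factors Cebpa and Cebpb fell, Cebpa from 12.3 ± 0.285 to 5.03 ± 0.304 CPM (log2 change -1.29, adjusted p = 3.15e-05) and Cebpb from 43.0 ± 1.44 to 26.3 ± 1.22 CPM (-0.71, adjusted p = 3.75e-05). Ppara, the nuclear receptor that drives fatty acid use, fell by 1.10 from 2.51 ± 0.287 CPM (adjusted p = 0.0242). The Ppara call was lost under 5 of 11 alternatives, among them each library left out except MGT+shNT replicate 2 (adjusted p between 0.0516 and 0.166). The Srebf1 call likewise held, of the fits that leave out 1 library, only without MGT+shNT replicate 2.

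Phosphatidate can also be turned into CDP-diacylglycerol, the precursor of phosphatidylinositol and cardiolipin, by the synthases Cds1 and Cds2. Cds2 had 180 and 182 CPM in control and 96.5 and 104 CPM after knockdown and fell by 0.85 (SE 0.06, adjusted p = 3.94e-07). The groups lay far apart, and with all 11 alternatives the gene was called. Of 20 genes of phospholipid synthesis, 4 fell (20.0%) and 2 rose (10.0%), near the 16.3% and 13.1% of all tested genes. Chpt1, which makes phosphatidylcholine from diacylglycerol, fell by 0.55 (142 ± 9.2 to 97.5 ± 2.95 CPM, adjusted p = 3.57e-05), and the ethanolamine kinase Etnk2 rose by 1.11 from 0.983 ± 0.293 CPM (adjusted p = 0.0455). Among genes chosen after their values were seen, Cept1, which shares the last step of phosphatidylcholine synthesis with Chpt1, fell by 0.44 (adjusted p = 0.00156), the cardiolipin synthase gene Crls1 fell by 0.34 (adjusted p = 0.0149), and Pcyt1a, the rate-limiting enzyme of the same phosphatidylcholine pathway, rose by 0.35 (adjusted p = 0.000938). Etnk2 lost its call under 6 of 11 alternatives, among them each library left out except MGT+shNT replicate 2 (adjusted p between 0.0566 and 0.299), and Crls1 under 5, among them either knockdown library left out (adjusted p between 0.0621 and 0.162).

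Of 10 further lipases and their regulators that were tested, 4 fell and 0 rose, beside 16.3% and 13.1% of all tested genes. At an unadjusted edgeR p below 0.05, 2 were higher. Lipa, the lysosomal acid lipase, had 147 and 147 CPM in control and 72.2 and 71.0 CPM after knockdown and fell by 1.04 (SE 0.06, adjusted p = 5.89e-08). The others were Pnpla3 (-1.62, from 1.43 ± 0.039 CPM, adjusted p = 0.0152), the endothelial lipase Lipg (-0.94, adjusted p = 0.00132) and the phospholipase Ddhd2 (-0.47, adjusted p = 0.00153). The droplet-associated dehydrogenase Hsd17b11 fell by 1.09 (26.0 ± 0.585 to 12.2 ± 0.246 CPM, adjusted p = 6.62e-06) and Gpd1l, a relative of glycerol-3-phosphate dehydrogenase, by 0.90 (adjusted p = 2.84e-05). Pnpla3 lost its call with the DESeq2 Wald test and with either knockdown library left out (adjusted p between 0.0925 and 0.17), and Ddhd2 on the FPKM scales (adjusted p between 0.0661 and 0.0706). In the same libraries, 13 of 18 macrophage markers fell, 1 rose and 4 did not pass. Their part in the falls of these lipid genes was not tested. Of 12 further genes of acyl chain remodelling and phospholipases, 3 rose and 1 fell, beside 13.1% and 16.3% of all tested genes. The risers, chosen after their values were seen, were the lysosomal phospholipase Pla2g15 (0.37, adjusted p = 0.00339), Pla2g6 (0.28, adjusted p = 0.031) and Mboat7, which places arachidonate on phosphatidylinositol (0.19, adjusted p = 0.0207). The fall, likewise named after its value was seen, was that of Pnpla8 (-0.19, adjusted p = 0.0493), just inside the threshold. Pla2g15 lost its call without MGT+shScd1 replicate 1 (adjusted p = 0.0757). Mboat7 lost it with the DESeq2 Wald test and either knockdown library left out (adjusted p between 0.0626 and 0.173). Pla2g6 lost it under 5 alternatives, among them MGT+shNT replicate 2 and either knockdown library left out (adjusted p between 0.0521 and 0.206).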

How the data were processed

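RNA-seq of 4 libraries was used, 2 MGT+shNT and 2 MGT+shScd1, grouped by their titles. Per the labels' protocols, RNA was depleted of ribosomal RNA and sequenced as stranded read pairs, while the labels name the molecule polyA RNA. The authors deposited 1 table that holds raw counts of reads for each gene. The FPKM values, also deposited by the authors, equalled those computed from count, exonic length and total count in 100.0% of cases (tolerance 0.005), so they carry no TMM scaling. Per the submitters' processing notes, Trimmomatic 0.36, Subread 1.5.1, featureCounts and SAMtools were used with mm10. No source used here gives the aligner, the annotation, the strand setting or the handling of multi-mapping reads, so overlapping, antisense and near-identical genes are uncertain. None of the 38 genes had the same start in the table and in GENCODE M21, so positions are those of GENCODE M21 (GRCm38).

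Counts were tested with edgeR 4.0.16 in R 4.3.3 (TMM, filterByExpr with minimum count 10 and minimum total 15, quasi-likelihood test on the group, two-sided, Benjamini-Hochberg over 16234 genes). TMM factors were between 0.946 and 1.03. SE is the absolute log2 fold change divided by the square root of the F statistic. CPM use the summed count of tested genes times the TMM factor. Means are given ± SD (n = 2). The same test was also tried on counts simulated with its own estimated spread, so that trial cannot check the spread between replicates. The alternatives were RLE normalisation, DESeq2 1.42.0, limma-voom (limma 3.58.1), no filter, limma on log2(FPKM + 1) and log2(FPKM + 0.1), the replicate number as a block, and each library left out. The replicates of a group differed beyond sampling noise, and all 4 libraries were counted. Chi-square per degree of freedom was 28.5 in MGT+shNT and 2.3 in MGT+shScd1. The value for MGT+shNT is raised by Rn18s-rs5, which took 0.199% of the counts of replicate 1 and 3.32% of replicate 2. It was not computed without that gene. The 38 genes and the lists were chosen with earlier results of these data known. Every one of the 38 genes is reported. Of the further lipid genes, the 12 called genes with the largest absolute log2 fold change and no overlap between groups are named, with 5 regulators, of which Ppara is also among the 12. Others, among them Acsl1, Acsl4 and Lpcat3, were chosen after their values were seen. Of 92 further names, 1 was an older name of another and 1 was not matched. Deposited coordinates were not used.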

Additional observations from a re-analysis of the deposited data

How the results depend on the processing

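Scd1 stayed lower and called under all 11 alternatives. The 4763 genes called became 2272 to 5395 with 1 library left out. Of the 38 lipid genes, falls (11) ranged from 6 to 13 and rises (3) from 0 to 6 with 1 library left out. The share over all tested genes moved with the library left out too. Falls numbered 7 with the DESeq2 Wald test, 6 on log2(FPKM + 1) and 6 on log2(FPKM + 0.1), beside 11.7%, 7.69% and 7.8% of all genes. Rises numbered 0 with the DESeq2 Wald test (4 higher at an unadjusted p below 0.05) and 3 with limma-voom, beside 8.35% and 13.1% of all genes. Among the further lipid genes, falls (18) ranged from 10 to 17 and rises (6) from 1 to 9 with 1 library left out. Falls there were 11 with the DESeq2 Wald test, 11 on log2(FPKM + 1) and 10 on log2(FPKM + 0.1), beside 11.7%, 7.69% and 7.8% of all genes. Rises there were 2 with the DESeq2 Wald test, beside 8.35% of all genes. The cause of these differences was not tested. Leaving out a library also leaves 1 sample in a group, which is then assumed to vary like the other group.

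With the replicate number as a block, 4990 genes were called, 16.9% of all tested genes as lower and 13.9% as higher. There 11 lipid genes fell and 4 rose, the added rise being Fitm2. The deviations of same-numbered libraries from their group means had a correlation of 0.00769 across genes. With 2 libraries per group, this value cannot tell whether same-numbered libraries shared a culture or batch. Of 407 values of the lipid genes under the alternatives, 37 lost a call, 9 gained one and no called value changed sign. Macrophage markers that fell (13) numbered 7 on both FPKM scales, where 7.69% and 7.8% of all genes were called lower. Their number also moved with the library left out. Depth limits Mlxipl and Plin4, which had at most 34 counts in a library.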

Other observations

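The droplet protein genes Cidea, Plin5 and Plin1 were scarce in these cultures and did not enter the tests. Cidea, which enlarges droplets in brown fat, had 11 and 8 counts in MGT+shNT and 2 and 3 counts in MGT+shScd1, a ratio of 0.236 (exact 95% counting interval 0.0687 to 0.652). Plin5, the perilipin that tethers droplets to mitochondria in oxidative tissue, had 15 and 8 counts against 6 and 1 counts, a ratio of 0.272 (exact 95% counting interval 0.0987 to 0.656). These intervals cover counting error only, and with no filter on low counts neither gene passed (adjusted p of 0.145 and 0.118 by edgeR). Plin1, the perilipin of white fat, had 1 count in all 4 libraries together.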
